A study of Xenopus laevis with 25 samples.

Results

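The 6 genes described here are pdlim7, lmnb3, riok3, dedd, prkcd and klhl25. They were chosen for RNA at a similar distance between the arms at each of 5 hours. That likeness varied between their transcripts, and a dedd transcript of 1204 bases had hourly log2 changes from -0.21 to 0.90. The 6 symbols matched 10 of the 22891 transcripts in the deposited tables, and 9 of the 10 were among the 16967 transcripts abundant enough to be tested. The genes were chosen on measured values, namely the average difference between morpholino and wild-type libraries and its likeness from hour to hour, so those differences are given as a description, with no test. The leading transcript of a gene is the tested one with the largest absolute average change, except for riok3, where it is the most abundant. By the p of that average, the leading transcripts of pdlim7, lmnb3, riok3, dedd, klhl25 and prkcd ranked 2, 4, 7, 8, 21 and 22 among the 16967 transcripts. These ranks describe the choice and are no support for it.

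The libraries came from whole Xenopus embryos, labelled Xenopus laevis, and were made from poly(A)-selected RNA at 12, 13, 14, 15 and 16 hours post fertilization (hpf), the span in which the body axis and neural plate take shape. One arm held 10 wild-type libraries, 2 at each hour, and the other held 15 libraries of embryos injected with an RNF20 morpholino, 3 at each hour. The labels name no dose, no target sequence and no control morpholino or sham injection, so effects of the injection itself and of the morpholino cannot be told apart. They also do not say whether replicates were separate clutches, so p values measure only the spread between these samples. RNF20 forms a ubiquitin ligase with RNF40, and the pair marks histone H2B on transcribed genes with a single ubiquitin. In whole embryos, fewer cells of a type and less RNA per cell cannot be told apart.

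The 6 genes act in different parts of the cell. Pdlim7 (Enigma) carries a PDZ domain and LIM domains and links kinases and other partners to actin filaments. Lmnb3 encodes lamin B3, also called lamin LIII, the lamin known from the nuclear envelope of Xenopus oocytes and early embryos. Prkcd encodes protein kinase C delta, a kinase activated by diacylglycerol and not by calcium, which in Xenopus gastrulae is known to act with Dishevelled in convergent extension. Riok3 is an atypical kinase of the RIO family, which in human cells takes part in maturation of the small ribosomal subunit. Dedd has a death effector domain, the protein fold that also joins caspases to death receptors, and in mammalian cells it binds DNA. Klhl25 is a Kelch-like adaptor that, in human cells, brings substrates to the ubiquitin ligase CUL3.

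Library totals ran from 12757711 to 36150636 estimated counts. The RNA of the targeted gene was not lower in the morpholino arm: rnf20 stood at 38.2 to 80.04 CPM (counts per 1000000, scaled for library composition) in wild type and at 55.4 to 101 CPM in the morpholino arm, an average log2 change of 0.31 ± 0.09 (SE, edgeR adjusted p = 0.020) that was not called on the TPM scale. Since a morpholino blocks translation or splicing, the RNA level of its target is no check of the labels. The 5 libraries of morpholino replicate 3 stood apart. Their 13 mitochondrial transcripts held 2.31 to 2.89% of the counts. That share was 1.15 to 1.40% in wild type and 1.33 to 1.89% in morpholino replicates 1 and 2. Averages of the leading transcripts without that replicate are given in the last section, and some other values without it beside the main ones. The summed level of 19 skeletal muscle marker transcripts was 1982 to 8062 CPM in wild type and 1063 to 5536 CPM in the morpholino arm; 13 of the 15 symbols on that list were matched, and 7 transcripts fell and 1 rose. The part of such differences in the values below was not tested.

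Over all tested transcripts, 2353 (13.9%) were higher and 2228 (13.1%) were lower in the morpholino arm on average over the 5 hours, 27% in all (edgeR quasi-likelihood test, Benjamini-Hochberg adjusted p under 0.05). On the scale of log2 TPM, which divides by transcript length and sums to the same total in each library, limma was used and the split was 1198 higher and 3791 lower, and the median of all transcripts moved from -0.003 to -0.18. For 219 transcripts (1.29%) no morpholino library overlapped any wild-type library. The leading transcripts of all 6 genes are among these 219. The 1204-base dedd transcript, with a median of 89.3% of the wild-type dedd counts, is not. As the genes were chosen on that difference, nothing is read from this.

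The actin adaptor pdlim7 had the highest rank of the 6 genes. Its long transcript, ENSXETT00000015737.3 with 3855 bases, lay between 148 and 231 CPM in wild type with a median of 192 CPM. In the morpholino arm it lay between 49.7 and 98.2 CPM with a median of 60.4 CPM. The arms did not overlap, and the morpholino level was 2.92-fold lower (average log2 change -1.55 ± 0.10, SE). At the single hours the log2 change was -1.37, -1.59, -1.68, -1.51 and -1.58 from 12 to 16 hpf, each ± 0.21 (SE). Every hourly estimate lay within 1 SE of the average. In wild type the 2 libraries of an hour went from 166 and 148 CPM at 12 hpf to 231 and 225 CPM at 16 hpf. In the morpholino arm the 3 libraries went from 58.8, 65.2 and 57.7 CPM to 67.0, 98.2 and 63.2 CPM, so the highest morpholino libraries, both replicate 2, were those at 15 and 16 hpf.

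A short pdlim7 transcript of 626 bases, ENSXETT00000015738.3, held a small part of the gene's counts. It lay between 0.854 and 9.12 CPM in wild type (median 3.19 CPM) and between 0.184 and 4.08 CPM in the morpholino arm (median 0.786 CPM). Its average log2 change was -1.48 ± 0.42 (SE). The arms overlapped over the whole course but not within any of the 5 hours. Its share of the pdlim7 counts was 0.588 to 3.81% in wild type, against 0.363 to 5.72% in the morpholino arm. The 5 libraries of morpholino replicate 3 held 0.363 to 1.37%, and without them the morpholino median was 2.65% instead of 1.34%, above the wild-type median of 1.64%. Per length, as a share of summed TPM, the median was 10.6% in wild type, against 8.83% in the morpholino arm. Without replicate 3 the latter was 16.25%. The long transcript held 94.3 to 99.6% of the pdlim7 counts, so the difference of -1.54 ± 0.10 (SE, log2) in the summed counts is almost wholly that of the long transcript.

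Lamin B3 showed the least variable levels. The single transcript of lmnb3, ENSXETT00000034455.3 with 4639 bases, lay between 101 and 109 CPM in all 10 wild-type libraries (mean 104.7 ± 2.67 CPM, SD, n = 10). It lay between 44.6 and 63.0 CPM in the morpholino arm (mean 53.4 ± 5.69 CPM, SD, n = 15). No library came near the other arm. The level was 1.96-fold lower, an average log2 change of -0.97 ± 0.07 (SE). The hourly values were -0.936, -0.996, -0.999, -1.01 and -0.915, each ± 0.15 (SE). All the estimated counts of lmnb3 were whole numbers, so no read was shared out between transcripts.

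The kinase prkcd was lower by a smaller fold. Its transcript ENSXETT00000020628.3, with 2769 bases, lay between 128 and 176 CPM in wild type (median 149 CPM) and between 60.6 and 116 CPM in the morpholino arm (median 84.0 CPM). The highest morpholino value, 116 CPM, was replicate 3 at 16 hpf, and the lowest, 60.6 CPM, was replicate 3 at 12 hpf. The average log2 change was -0.85 ± 0.08 (SE), 1.80-fold lower. Hour by hour it was -0.95, -0.91, -1.03, -0.81 and -0.56, each ± 0.19 (SE), so the estimate at 16 hpf was the one nearest to 0. By TPM, replicate 3 was the lowest of the 3 morpholino libraries at 16 hpf, at 36.1 TPM against 55.3 and 57.2 TPM. The other prkcd transcript, ENSXETT00000020627.3, was above 0 in 3 of 25 libraries and was not tested.

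The kinase riok3 was higher in every morpholino library than in any wild-type library. Its transcript ENSXETT00000057118.2, with 2786 bases, lay between 89.4 and 117 CPM in wild type (median 105 CPM) and between 241 and 418 CPM in the morpholino arm (median 282 CPM). By CPM, morpholino replicate 3 was the highest of the 3 libraries at each hour, at 298.5 to 418 CPM against 241 to 341 CPM for replicates 1 and 2. By TPM it was the lowest at 16 hpf, at 129 TPM against 208 and 158 TPM, and below replicate 1 at 15 hpf, at 158 against 167 TPM. The average log2 change was 1.54 ± 0.11 (SE), 2.91-fold higher, and 1.37 without replicate 3. The hourly values were 1.51, 1.47, 1.64, 1.503 and 1.58, each ± 0.25 (SE). A transcript of similar length, ENSXETT00000066403.1 with 2807 bases, was at 0 in 5 of 10 wild-type and 5 of 15 morpholino libraries and reached at most 5.73 CPM. Its log2 change of 2.02 ± 1.18 (SE) had an error of more than 0.5 of its size, and the summed riok3 counts gave 1.55 ± 0.11 (SE).

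The Kelch-like adaptor klhl25 was the scarcest of the genes that were lower. Its single transcript, ENSXETT00000016578.2 with 1854 bases, lay between 4.64 and 10.3 CPM in wild type (median 7.35 CPM) and between 0.762 and 3.05 CPM in the morpholino arm (median 1.93 CPM). The average log2 change was -1.86 ± 0.18 (SE), 3.63-fold lower. It was -1.62, -1.72 and -1.69 at 12, 13 and 14 hpf and -2.19 and -2.09 at 15 and 16 hpf, each ± 0.40 (SE). The lowest library, at 0.762 CPM, was morpholino replicate 3 at 16 hpf.

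**Figure D1:**
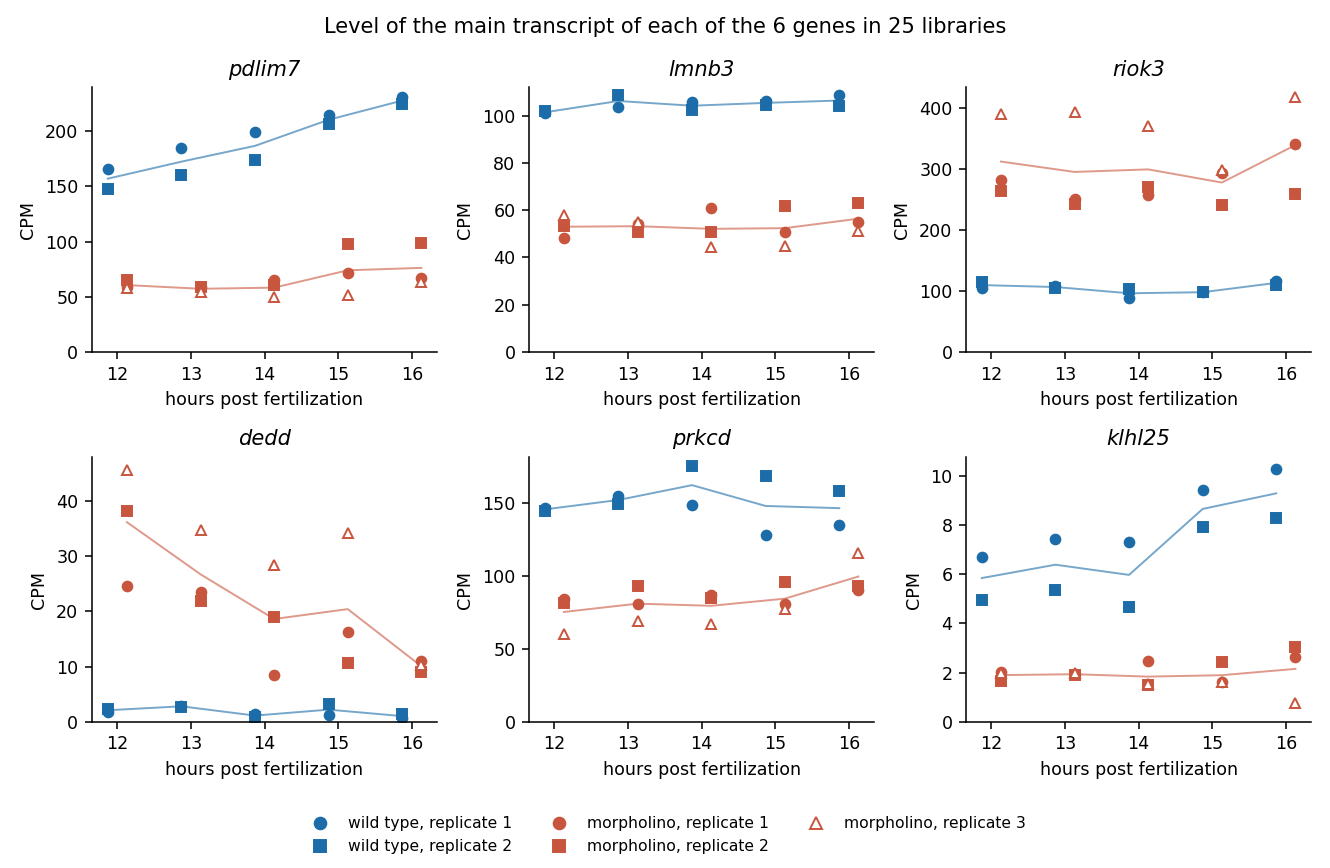
Level in CPM (vertical axes, linear from 0) of the leading transcript of each of the 6 genes against hours post fertilization. For dedd this is the 1291-base transcript, the scarcer of its transcripts in wild type. Each symbol is 1 library, lines join the hourly means, and in all 6 panels the 10 wild-type and 15 morpholino libraries occupy separate ranges, such as 101 to 109 and 44.6 to 63.0 CPM for lmnb3.

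The death effector gene dedd had the widest separation, and it lay in one of its 2 transcripts. The transcript of 1291 bases, ENSXETT00000064877.1, lay between 0.657 and 3.24 CPM in wild type (median 1.65 CPM) and between 8.496 and 45.7 CPM in the morpholino arm (median 21.9 CPM). The lowest morpholino library thus lay above the highest wild-type library. The average log2 change was 3.57 ± 0.28 (SE), 11.9-fold higher. The hourly values were 4.10, 3.24, 4.03, 3.21 and 3.29, with SE from 0.60 to 0.64.

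The dedd transcript of 1204 bases, ENSXETT00000008305.3, lay between 10.8 and 17.1 CPM in wild type (median 12.6 CPM) and between 9.46 and 28.2 CPM in the morpholino arm (median 17.5 CPM). Its average log2 change was 0.39 ± 0.11 (SE), and the hourly values were -0.21, 0.14, 0.77, 0.90 and 0.37, each ± 0.25 (SE). The arms overlapped at 12 and 13 hpf and were separate at 14, 15 and 16 hpf. It was the transcript of the 6 genes whose hourly values differed most beside their errors (F = 3.37 over the 5 hours by edgeR, given as a description). With counts pooled over both transcripts, dedd was 1.41 ± 0.12 higher on the log2 scale (SE).

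The share of dedd counts on the transcript of 1291 bases was 5.45 to 21.2% in wild type, with a median of 10.7%. In the morpholino arm it was 29.3 to 81.8%, with a median of 50.2%. The morpholino median went from 73.9% at 12 hpf through 59.9, 48.2 and 43.1% to 37.3% at 16 hpf, while the wild-type shares at those hours ran between 5.45 and 21.2% with no such course. Without morpholino replicate 3 the morpholino median was 47.7%. The split between the 2 transcripts is kallisto's estimate, not whole in any of the 25 libraries. The transcript identifiers carry the prefix of Xenopus tropicalis. A RefSeq gene table of Xenopus laevis (v10.1) lists 2 copies each of dedd, lmnb3, riok3, prkcd and klhl25, and 1 of pdlim7. Whether reads of the dedd copies fall on different transcripts was not tested.

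**Figure D2:**
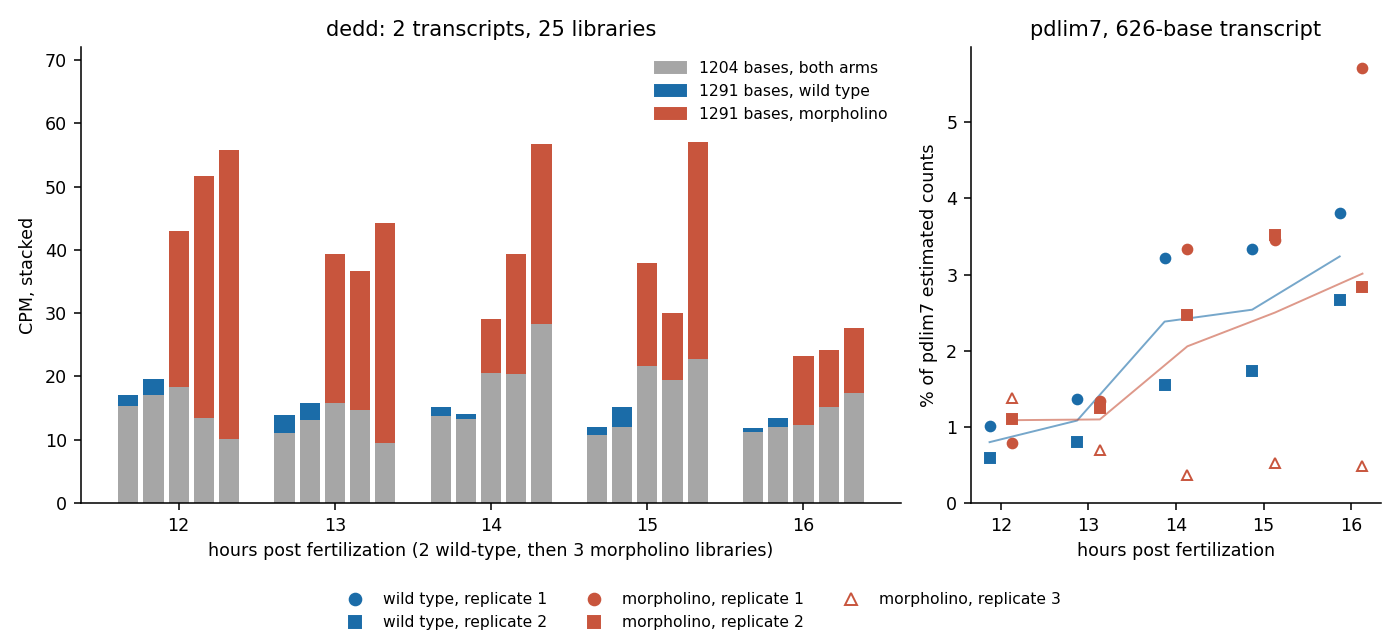
Left, CPM of the 2 dedd transcripts stacked for each of the 25 libraries by hours post fertilization, the 1204-base transcript in grey and the 1291-base transcript in colour; the coloured part is 0.657 to 3.24 CPM in wild type and 8.496 to 45.7 CPM in the morpholino arm. Right, percent of pdlim7 estimated counts on its 626-base transcript per library, with lines through hourly means; morpholino replicate 3 stays at 0.363 to 1.37%.

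Among the 6 leading transcripts, the levels per length in wild type (median TPM) were in the order prkcd 90.9 TPM, pdlim7 84.7 TPM, riok3 62.6 TPM, lmnb3 37.8 TPM, klhl25 6.97 TPM and the 1291-base dedd transcript 2.26 TPM. The wild-type ranges of prkcd (83.7 to 103 TPM) and pdlim7 (60.7 to 102 TPM) overlapped, as did those of pdlim7 and riok3 (55.6 to 72.4 TPM). Ranges of the later neighbours in the order overlapped only for klhl25 and dedd, at 4.14 to 9.76 TPM and 0.902 to 4.32 TPM. In the morpholino arm riok3 came first at 158 TPM, followed by prkcd at 46.2 TPM, dedd at 26.8 TPM, pdlim7 at 23.4 TPM, lmnb3 at 17.04 TPM and klhl25 at 1.55 TPM. The 1291-base dedd transcript, last in the wild-type order, had a higher median than pdlim7 in the morpholino arm, though their ranges of 7.13 to 52.5 and 13.99 to 42.9 TPM overlapped. Riok3 (129 to 208 TPM) and klhl25 (0.361 to 2.84 TPM) stood clear of their neighbours in that order, while the ranges of prkcd and dedd and of pdlim7 and lmnb3 overlapped.

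The label of an equal shift at every hour was read against a joint test of the differences between hours. The edgeR fit called 0 of 16967 transcripts (0%), with 166 at an unadjusted p under 0.05, and limma on log2 TPM called 1 with 211 at an unadjusted p under 0.05. Both unadjusted counts lie well below the share of 0.05 that equal shifts alone would give. The joint test thus made few calls of any kind here and cannot decide the label. A p that misses the threshold does not show that the shifts were equal. The hourly estimates of the leading transcripts ranged over 0.09 (lmnb3), 0.17 (riok3), 0.31 (pdlim7), 0.47 (prkcd), 0.57 (klhl25) and 0.89 (dedd) log2 units. Those of the 1204-base dedd transcript ranged over 1.11. For prkcd the authors' deposited table gave a log2 change of -0.96 at 12 hpf (q = 0.00028) and -0.47 at 16 hpf (q = 0.958). In the authors' deposited table at 16 hpf, the leading transcripts of pdlim7 (-1.52, q = 0.129), riok3 (1.65, q = 0.0916), lmnb3 (-0.83, q = 0.958), klhl25 (-2.22, q = 0.958) and dedd (3.42, q = 0.637) also did not pass a q of 0.05. At 16 hpf, 7 of 16148 transcripts (0.0434%) of the authors' deposited table passed, against 129 of 15474 (0.834%) at 12 hpf. At 12 hpf the authors' deposited table gave q = 2.7e-12 for pdlim7, 9e-12 for dedd, 4.1e-07 for riok3, 5.7e-05 for lmnb3 and 0.0791 for klhl25. As the genes were chosen on the same differences, these q values are descriptions.

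**Figure D3:**
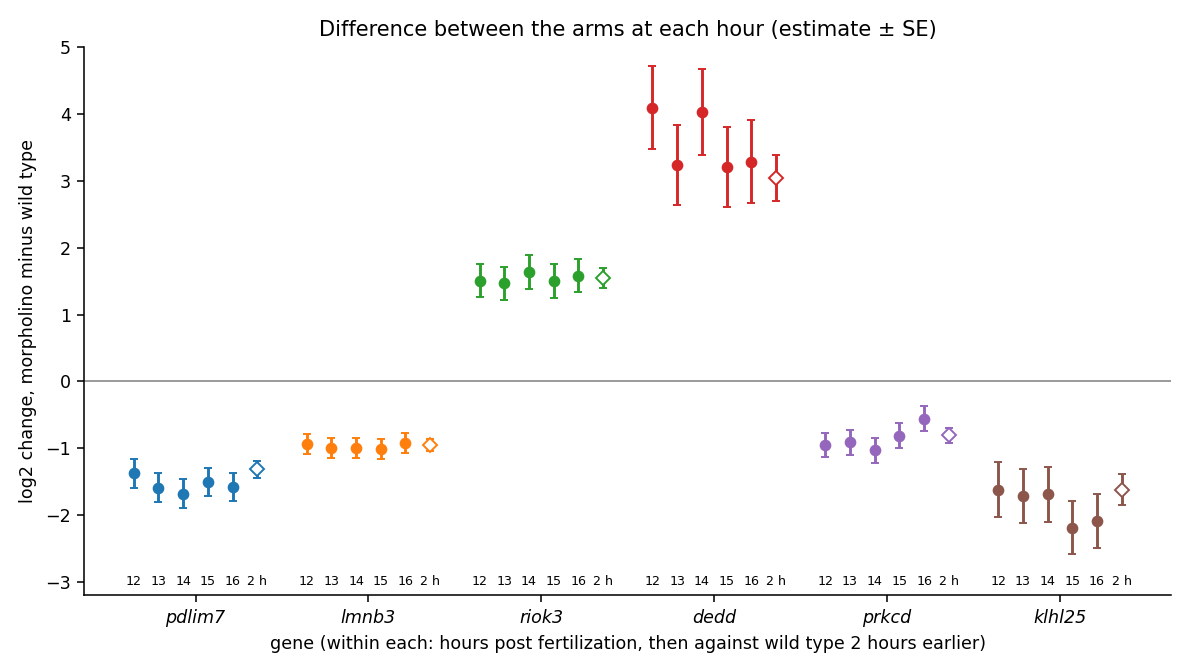
Log2 change, morpholino minus wild type (vertical axis), of the leading transcript of each gene. Filled points are the 5 hours and open diamonds the mean difference from wild type 2 hours earlier, with bars of 1 SE; the filled points of lmnb3 lie between -1.01 and -0.91 and those of dedd between 3.21 and 4.10.

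The change within each arm over the 5 hours was not itself used to choose the genes, and it was tested. The choice of a like difference at each hour still ties the slopes of the arms to each other. In wild type, 371 of 16967 transcripts (2.19%) changed along a straight line over time (edgeR, adjusted p under 0.05). None of the 9 transcripts of the 6 genes was among them, with 2 of 9 at an unadjusted p under 0.05. DESeq2 called 1 of 9, and 1520 over all transcripts. The spread was estimated over both arms together, so these p values also depend on the morpholino libraries. The wild-type slopes in log2 units per hour were 0.01 ± 0.04 for lmnb3 (SE, adjusted p = 0.900), -0.002 ± 0.06 for riok3 (adjusted p = 1.0) and -0.002 ± 0.05 for prkcd (adjusted p = 1.0) by edgeR. They were 0.18 ± 0.10 for klhl25 (SE, adjusted p = 0.322), -0.24 ± 0.14 for the 1291-base dedd transcript (adjusted p = 0.340) and -0.11 ± 0.06 for the 1204-base dedd transcript (adjusted p = 0.339).

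For pdlim7 the wild-type slope passed once the replicate number entered the fit. Without that term the long transcript had a slope of 0.14 ± 0.05 log2 units per hour (SE, edgeR adjusted p = 0.162) and the short one of 0.67 ± 0.24 (adjusted p = 0.134). Wild-type libraries of the same number were weakly correlated across hours (0.103 to 0.172). With the replicate block both passed, at 0.14 (edgeR adjusted p = 0.020) and 0.68 (adjusted p = 0.00978). The count of wild-type slopes over all transcripts depends on a few libraries, morpholino ones included, since the arms share an estimate of the spread. It was 3266 with the replicate block and 6712 without morpholino replicate 3, and by single libraries left out it was lowest at 8 without wild-type replicate 2 at 12 hpf and highest at 2114 without morpholino replicate 3 at 16 hpf. Without the 5 libraries of morpholino replicate 3, 4 of 9 transcripts were called in wild type: the 2 of pdlim7 (adjusted p = 0.012 and 0.0010), klhl25 (0.18 per hour, adjusted p = 0.049) and the 1204-base dedd transcript (-0.11 per hour, adjusted p = 0.025). With 6712 calls over all transcripts in that setting, the 4 of 9 is not read as a result about these genes. The short pdlim7 slope stayed at 0.67, while its SE went from 0.24 to 0.12.

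In the morpholino arm 2996 of 16967 transcripts (17.7%) changed over time. Of the 9 transcripts of the 6 genes, 1 passed, the 1291-base dedd transcript, which fell by 0.41 ± 0.11 log2 units per hour (SE, edgeR adjusted p = 0.016). Its 3 libraries went from 24.6, 38.2 and 45.7 CPM at 12 hpf to 10.97, 8.996 and 10.25 CPM at 16 hpf. The call was lost without morpholino replicate 3 at 12 hpf (adjusted p = 0.060) and was kept in the other 30 of 31 settings. The summed dedd counts fell by 0.20 ± 0.05 log2 units per hour (SE, adjusted p = 0.012 among 14151 symbols).

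The remaining morpholino slopes did not pass in the edgeR fit of all 25 libraries without the replicate block. They were 0.10 ± 0.04 log2 units per hour for the long pdlim7 transcript (SE, edgeR adjusted p = 0.104), 0.55 ± 0.20 for the short one (adjusted p = 0.063), 0.09 ± 0.04 for prkcd (adjusted p = 0.114), 0.09 ± 0.05 for the 1204-base dedd transcript (adjusted p = 0.230), 0.04 ± 0.08 for klhl25 (adjusted p = 0.800), 0.02 ± 0.03 for lmnb3 (adjusted p = 0.758) and 0.02 ± 0.05 for riok3 (adjusted p = 0.860). With the replicate block the long pdlim7 transcript (adjusted p = 0.031) and prkcd (adjusted p = 0.047) passed, in a setting with 5562 calls over all transcripts. Deviations of same-numbered morpholino libraries were correlated across hours, at 0.124 to 0.426 for number 1 and 0.25 to 0.535 for number 3. For number 2 the range was 0.0274 to 0.189. These values were over 0.1 in 10 of 10 pairs of hours for numbers 1 and 3, and in 7 of 10 for number 2. The main fit leaves these correlations out. Without morpholino replicate 3 both pdlim7 transcripts passed, at 0.14 (adjusted p = 0.010) and 0.71 (adjusted p = 7.8e-04). Across all transcripts that setting gave 7509 calls, and by single libraries left out the count was lowest at 1013 without morpholino replicate 3 at 12 hpf and highest at 6026 without it at 16 hpf. Without morpholino replicate 2 at 12 hpf it was 1460.

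**Figure D4:**
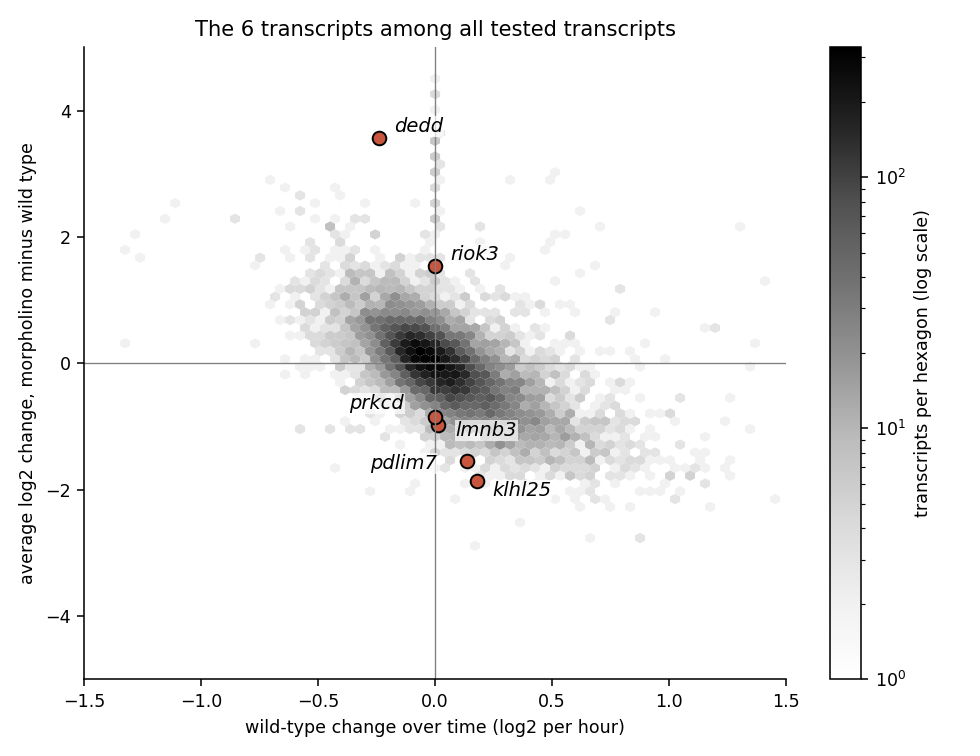
Average log2 change, morpholino minus wild type (vertical axis), against the wild-type change over time in log2 units per hour (horizontal axis). Grey hexagons count the 16967 tested transcripts within the axes and red points are the leading transcripts of the 6 genes; riok3, prkcd and lmnb3 lie at wild-type slopes of -0.002, -0.002 and 0.01.

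Morpholino libraries at 14, 15 and 16 hpf were also set against wild type 2 hours earlier. The earlier morpholino hours have no such wild-type libraries and were left out. The offset itself leaves a transcript that is flat in wild type where it was. Leaving out hours can still move a transcript whose difference between the arms varies from hour to hour. Across the 4581 transcripts with a called average, the median wild-type slope was -0.12 log2 units per hour for those higher and 0.18 for those lower in the morpholino arm, and the median size of the slope was 0.146 against 0.112 for all tested transcripts. Against wild type 2 hours earlier, 379 transcripts (2.23%) were called, and 338 of the 4581 called averages were called again in the same direction. Against wild type of the same hour, 14, 15 and 16 hpf alone gave 200 higher and 175 lower. That same-hour fit used only the libraries of those hours, with its own estimate of the spread, so these counts do not isolate the offset. The part of the offset in the smaller count was not tested. In that comparison, which shares the morpholino libraries with the average, the leading transcripts stood at -1.31 ± 0.12 for pdlim7, -0.95 ± 0.09 for lmnb3, -0.81 ± 0.11 for prkcd, 1.55 ± 0.14 for riok3, 3.05 ± 0.35 for dedd and -1.62 ± 0.23 for klhl25 (log2, SE). These values are between 0.85 (pdlim7) and 1.01 (riok3) of the average. The average also takes in the earlier morpholino hours, so these ratios mix the offset with a change of hours. Same-hour values at 14, 15 and 16 hpf alone were -1.57 for pdlim7, -0.955 for lmnb3 and -0.78 for prkcd (log2). They were 1.595 for riok3, 3.53 for dedd and -1.97 for klhl25. Against wild type 2 hours earlier, the short pdlim7 transcript stood at -0.26 ± 0.54 (SE). Its average was -1.48, and its same-hour value at 14, 15 and 16 hpf was -1.605. The 1204-base dedd transcript stood at 0.49 ± 0.15 (SE) against wild type 2 hours earlier. Its average was 0.39, and its same-hour value at 14, 15 and 16 hpf was 0.70.

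The called relatives of the 6 genes went both ways. The lists of relatives leave out the 6 genes themselves, and their counts stand against 13.9% of all tested transcripts called higher and 13.1% called lower. The median log2 change over all tested transcripts was -0.003 for counts and -0.18 on the log2 TPM scale, where limma gave more falls in 5 of the 6 lists. The splits on that scale are given beside the main ones. Among 23 transcripts of nuclear lamina and envelope genes, 2 were called, both higher, with a median log2 change of 0.02 over the list. They were lmnb1, the B-type lamin of most cells, at 517 ± 44.6 CPM in the 10 wild-type and 759 ± 308 CPM in the 15 morpholino libraries (SD), with a log2 change of 0.55 ± 0.20 (SE, edgeR adjusted p = 0.048), and a transcript of the lamin B receptor lbr, ENSXETT00000061298.1, at 1.98 ± 0.69 (adjusted p = 0.044). The other lbr transcript stood at -0.10 (adjusted p = 0.567). Lmnb1 thus stood on the other side of 0 from lmnb3. On the log2 TPM scale 1 was higher and the list median was -0.17. Both calls depended on the setting: lmnb1 was called in 12 of 34 alternatives and lbr in 11, and the count of rises ran from 0 to 4 when 1 library was left out.

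Among 33 transcripts of PDZ-LIM and LIM actin adaptors, 6 rose and 9 fell, with a median log2 change of -0.18. The transcript ENSXETT00000003294.3 of pdlim3, a muscle Z-disc relative of pdlim7, stood at 18 ± 21.4 CPM in the 10 wild-type and 4.53 ± 8.42 CPM in the 15 morpholino libraries (SD), and it fell by 3.51 ± 0.82 (log2, SE, edgeR adjusted p = 0.0071). Its wild-type slope was 1.41 per hour, and against wild type 2 hours earlier its change was 0.55 (adjusted p = 0.833), of the opposite sign. The other pdlim3 transcript had an average of -0.28 (adjusted p = 0.810). A transcript of the actin crosslinker actn1, ENSXETT00000063807.1, was at a median of 0 CPM in wild type and 5.77 CPM in the morpholino arm (edgeR adjusted p = 0.010). On the log2 TPM scale 4 rose and 12 fell. Without wild-type replicate 1 at 12 hpf the list had 3 rises and 3 falls.

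Among 47 transcripts of RIO kinases and factors of small ribosomal subunit maturation, 10 rose and 4 fell, with a median log2 change of 0.32. Beside the 1.54 of riok3, mphosph10, a component of the processome that assembles the small subunit, rose by 0.71 ± 0.15 (log2, SE, edgeR adjusted p = 0.0040), with means of 63.7 ± 5.43 CPM (wild type) and 104 ± 30.4 CPM (morpholino, SD). The assembly factor tsr1 rose by 0.69 ± 0.18 (SE, adjusted p = 0.013). On the log2 TPM scale 4 rose and 6 fell, with a median of 0.06, or 0.24 above that of all transcripts. The count of rises was 6 without wild-type replicate 1 at 14 or 15 hpf and 17 without morpholino replicate 3 at 16 hpf.

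Among 25 transcripts of death effector domain proteins and caspases, 3 rose and 1 fell, with a median log2 change of -0.003. Bid, a BH3-only protein cut by caspases, rose by 0.94 ± 0.22 (log2, SE, edgeR adjusted p = 0.0069). On the log2 TPM scale 2 rose and 3 fell. The list stood between 0 and 2 falls when 1 library was left out.

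Among 32 transcripts of the protein kinase C family and its substrates, 3 rose and 5 fell, with a median log2 change of -0.14. The substrate marcksl1, which binds actin and the membrane, rose by 1.42 ± 0.32 (log2, SE, edgeR adjusted p = 0.0051), from a mean of 465 ± 156 to 1234 ± 734 CPM (SD). The protein kinase D gene prkd3 fell by 1.01 ± 0.30 (SE, adjusted p = 0.021). On the log2 TPM scale 1 rose and 6 fell. Among 50 transcripts of Kelch-like adaptors and CUL3, 4 rose and 2 fell, with a median log2 change of 0.02. Klhl24 fell by 1.07 ± 0.26 (SE, edgeR adjusted p = 0.0083) and klhl23 by 0.90 ± 0.28 (adjusted p = 0.026), beside the -1.86 of klhl25. On the log2 TPM scale 1 rose and 11 fell. The falls numbered 1 without wild-type replicate 1 at 13, 14, 15 or 16 hpf and 9 without morpholino replicate 1 at 12 hpf. Against wild type 2 hours earlier, the 11 relatives named so far had edgeR adjusted p from 0.095 to 0.955, and their calls also did not hold with 14, 15 and 16 hpf alone. Other relatives, chosen after their values were seen, were called in that comparison. The LIM protein fhl2 stood at 2.56 (adjusted p = 0.0015), against an average of 2.99, and the protein kinase D gene prkd1 at 0.40 (adjusted p = 0.0059), against 0.22. The phospholipase plcg1 stood at -0.62 (adjusted p = 0.044), against -0.58, and the klhl32 transcript ENSXETT00000001767.3 at -1.03 (adjusted p = 0.019), against -0.32.

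**Figure D5:**
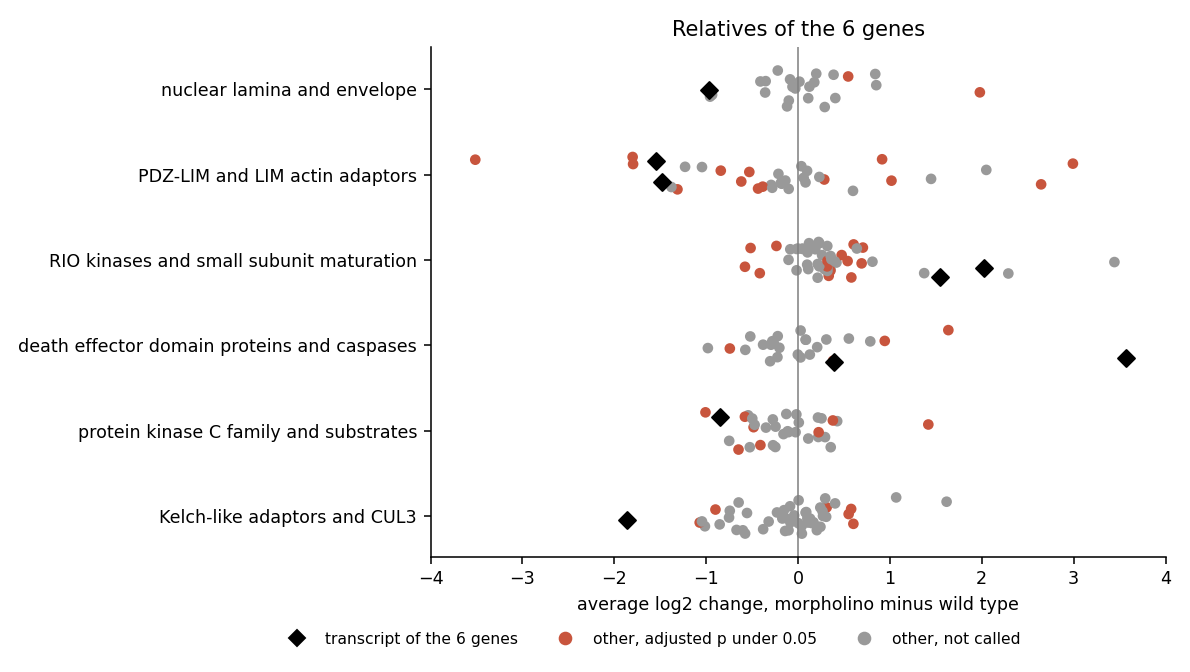
Average log2 change, morpholino minus wild type (horizontal axis), of the transcripts of 6 lists of relatives, 1 point a transcript, with vertical scatter only for legibility. Black diamonds are transcripts of the 6 genes, red points other transcripts with an adjusted p under 0.05, and 2 transcripts beyond the axis are not drawn; the diamonds of klhl25, at -1.86, and dedd, at 3.57, lie outside the points of their lists.

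The transcripts most like each gene were found by the root mean square distance between log2 CPM profiles, each centred on its own mean, over the 25 libraries and about 11700 candidates with a symbol. For pdlim7 they were adipor1, an adiponectin receptor, the minus-end-directed myosin myo6 and GFM1, a mitochondrial elongation factor, at 0.30, 0.34 and 0.34 log2 units against a median of 0.90 over all candidates. For lmnb3 they were myo6, the microRNA-processing nuclease drosha and gamma tubulin tubg1, all at 0.15 against a median of 0.65. For riok3 they were the nuclease aen, the pyruvate dehydrogenase kinase pdk4 and the cyclin ccng1, at 0.21, 0.27 and 0.32 against 0.88. Aen and ccng1 stand on a list of 4 p53 targets kept as a check, of whose 5 transcripts 4 rose. For prkcd they were INO80E, a chromatin remodeller subunit, the folate transporter slc46a1 and adipor1, at 0.17, 0.18 and 0.20 against 0.63. For klhl25 the nearest profile was that of pdlim7 itself, at 0.35 against 1.06, followed by the co-chaperone rpap3 and the cathepsin ctso, both at 0.44. For the 1291-base dedd transcript they were cpsf4l, the pigment enzyme dct and the CpG-binding protein cxxc1, at 0.82, 0.93 and 0.94 against 1.90, a looser likeness. For the 1204-base dedd transcript they were rab11fip1, FAM169A and sh3rf1, at 0.25, 0.26 and 0.28 against 0.58. The profiles share libraries and scaling, and they include the difference between the arms on which the genes described here were chosen. Klhl25 and pdlim7 were both chosen on a steady difference and both were lower, so a short distance between them follows in part from the choice. Nothing is read from that likeness, and the distances are descriptions.

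Genes next to the 6 in the Xenopus laevis RefSeq table (v10.1) were looked up by name, since the builds differ and no coordinates can be carried over. Of 15 neighbours, 12 had tested transcripts, 15 in all, of which 1 rose, 6 fell and 8 were not called (log2 changes from -2.17 to 0.02). The -2.17 belongs to a dbn1 transcript, ENSXETT00000061953.1, whose SE was 9310, so it is no usable estimate of a change. Next to pdlim7, the other transcript of the actin-binding dbn1, ENSXETT00000015740.3, fell by 0.47 ± 0.08 (SE, edgeR adjusted p = 0.0013). Next to prkcd, the 2 transcripts of the Polycomb-related sfmbt1 fell by 0.96 and 0.92 (edgeR adjusted p = 0.014 and 0.016). Next to lmnb3, sh3gl3 fell by 1.38 ± 0.49 (adjusted p = 0.047). Next to riok3, tmem241 rose by 1.12 ± 0.39 (adjusted p = 0.042) and a ttc39c transcript, ENSXETT00000057112.2, fell by 4.17 ± 1.08 (adjusted p = 0.012). The other ttc39c transcript stood at 0.02 ± 0.21 (SE, edgeR adjusted p = 0.975). The calls of sh3gl3 and tmem241 held in 11 and 12 of 34 alternatives, and the calls of all neighbours named here were lost against wild type 2 hours earlier. The same calls were also lost with 14, 15 and 16 hpf alone against wild type of the same hour. That fit used only the libraries of those hours, so the part of the offset in the loss was not tested. No neighbour of dedd was tested, and neither neighbour of klhl25 was called.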

How the data were processed

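The authors' deposited abundance tables hold, per transcript and library, lengths, TPM and the estimated counts that came from kallisto per the submitters' processing notes. The authors' deposited sleuth tables hold, per hour, p-values and q-values and effects on the natural log scale, whose sign ran wild type minus morpholino (r from 0.99977 to 0.99998 with the counts). Their sign was turned and their scale set to log2. For kallisto and sleuth no version, option or transcriptome build was given in the sources used here. Symbols came from the deposited 12 hpf table.

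The analysis used R 4.3.3, edgeR 4.0.16, limma 3.58.1 and DESeq2 1.42.0. Counts were rounded, since 25.9 to 30.6% of them per library were not whole. Filtering by filterByExpr over 10 groups (arm by hour) kept 74.1% of transcripts. Counts were scaled by TMM and tested by edgeR quasi-likelihood F tests with Benjamini-Hochberg adjustment within each comparison. The average is the mean of 5 hourly differences, a slope is a straight line through an arm's 5 hourly means, and SE is the log2 change divided by the root of F. The limma alternative used log2(TPM + 0.5).

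The members, lists and alternatives were chosen with earlier results of these data known. Named genes are all transcripts of the 6 symbols, in each list the 2 called relatives with the largest change, the 3 nearest profiles (average log2 CPM at least 1), rnf20 and rnf40, and called neighbours; some that this rule selects are not reported here. Rnf40 was higher on average by 0.50 ± 0.09 (log2, SE, edgeR adjusted p = 0.0012), not called by limma on TPM. The other marker lists gave 2 rises among 6 transcripts for notochord, 3 rises of 14 for neural plate, 1 fall of 9 for neural crest, 3 rises and 1 fall of 15 for epidermis, 5 rises of 13 for endoderm and 2 falls of 9 for blood.

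Same-numbered wild-type libraries correlated weakly across hours, at 0.103 to 0.172 after group means were removed. These values were just over a cut of 0.1 in 10 of 10 pairs, and the number was taken to pair the wild-type course. Between arms the range was -0.0586 to 0.185, over 0.1 in 4 of 10 pairs, and the number was not taken to pair the arms. Both readings rest on that cut. The main fit holds no replicate term and takes libraries of different hours as independent. Where same-numbered libraries are correlated, its p values for averages, those of relatives and neighbours included, can be too low. Those for slopes and for differences between hours can be too high. With the replicate block, called averages were 1606 higher and 1818 lower, against 2353 and 2228 in the main fit.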

Additional observations from a re-analysis of the deposited data

How the results depend on the processing

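The direction of the 6 leading transcripts was the same under each alternative run. Without morpholino replicate 3 their average log2 changes were -1.44 for pdlim7, -0.93 for lmnb3 and 1.37 for riok3. They were 3.28 for dedd, -0.79 for prkcd and -1.75 for klhl25, and the summed dedd counts gave 1.24. Values that moved by more than the SD between libraries of a group were, against wild type 2 hours earlier, 3.05 for the 1291-base dedd transcript, -0.26 for the short pdlim7 transcript and 3.63 for the scarce riok3 transcript. At 14, 15 and 16 hpf only they were 0.70 for the 1204-base dedd transcript and 0.57 for the scarce riok3 transcript, which ran from 0.77 to 3.52 with 1 library left out. By limma on log2 TPM the riok3 transcripts gave 1.33 and 0.52. Summed per symbol, both dedd transcripts take the value 1.41, by construction. The short pdlim7 transcript gave -0.97 with the replicate block. For averages that block shares the replicate numbers between the arms, though the number was not taken to pair the arms and number 3 exists only in the morpholino arm. For slopes the block is set within each arm. Pdlim3 turned to 0.55 against wild type 2 hours earlier. With 1 library left out, slopes near 0 crossed it: klhl25 from -0.0298 to 0.113, lmnb3 from -0.00174 to 0.0289 and riok3 from -0.0199 to 0.0539 in the morpholino arm, and prkcd from -0.0261 to 0.0194 and riok3 from -0.0159 to 0.00587 in wild type. Per length the short pdlim7 share was 8.83% in the morpholino arm (16.25% without replicate 3) and 10.6% in wild type.

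Called averages, higher and lower, were 200 and 175 at 14 to 16 hpf, 1198 and 3791 by limma, 570 and 445 against wild type 1 hour earlier, 204 and 175 against 2 hours earlier, and 1496 to 2972 and 1348 to 2823 with 1 library left out. Wild-type slope calls were 1520 by DESeq2, 3266 with the replicate block, 6712 without morpholino replicate 3 and 8 to 2114 with 1 library left out; morpholino slope calls were 5562, 7509 (block; without replicate 3) and 1013 to 6026. Differences between hours were called for 1 transcript by limma, an alternative chosen after seeing the data, and for 0 to 1 with 1 library left out. With the replicate block, prkcd (adjusted p = 0.047) and the long pdlim7 transcript (adjusted p = 0.031) passed for the morpholino slope; the causes were not tested. Depth limits klhl25 and the scarce transcripts of pdlim7, riok3 and prkcd.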
